A study of Homo sapiens with 15 samples.

Results

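Synthetic oligonucleotides carried into cells by transfection can be read by the cell as viral RNA, so the interferon and double-stranded RNA response of the transfected A549 cells was examined. It was represented by 48 genes taken by name and by function, not by their values, but earlier results of these data were known. They were the ligand IFNB1, the chemokines CXCL10 and CCL5, the RNA sensors, the enzymes that double-stranded RNA activates, the transcription factors of the pathway and the genes that interferon induces. The array held 71 probes for these 48 genes, out of 41000 probes and 30484 gene names in all. A549 is an established human lung adenocarcinoma line. Each of 15 dual-color arrays compared cells overexpressing 1 miRNA after transfection with its synthetic form, labeled with Cy5, with cells in which the same miRNA was knocked down by a locked nucleic acid antagomir, labeled with Cy3. The arrays covered miR-574-3p, miR-181d, miR-766, miR-565 and miR-629*, 3 for each, and the labels gave 20 nM oligonucleotide and 24 h before RNA isolation. Non-transfected or mock-transfected cells were not hybridized, so a response shared by both oligonucleotides would leave the ratio of an array unchanged and can be looked for only in the signal level of each channel. The dyes were not swapped, and dye and oligonucleotide therefore cannot be told apart in a ratio, but an effect of the dye shared by the arrays drops out when miRNAs are compared with each other. The labels did not state whether the replicates came from separate transfections, so each p value measures only the spread between these arrays.

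In this pathway, double-stranded RNA in the cytosol is bound by DDX58 (RIG-I) and IFIH1 (MDA5), and in endosomes by TLR3. Their signals activate IRF transcription factors and the secretion of interferon beta, encoded by IFNB1. Interferon then acts through a complex that holds STAT2 and IRF9 on interferon-stimulated response elements in the promoters of many genes, among them the MX, OAS, IFIT and IFITM genes that restrict viruses at different steps of their life cycle. EIF2AK2 (PKR) and the OAS enzymes are themselves activated by double-stranded RNA and stop translation or trigger RNA decay. In lung epithelial cells this response is a primary defense against respiratory viruses.

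The mature miRNA sequences are shown because they are the strands that the transfected oligonucleotides supplied or blocked. They were taken from RefSeq (GRCh38.p14) for 3 of the 5 miRNAs, with the seed (bases 2 to 8) in capitals and U for uracil. The 3 seeds differed. miR-181d is encoded at chr19:13874910-13874932 on the plus strand, miR-574-3p at chr4:38868092-38868113 on the plus strand, and miR-629*, listed as miR-629-3p, at chr15:70079387-70079408 on the minus strand. miR-565 and miR-766 are named only.
miR-181d: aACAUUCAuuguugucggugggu
miR-574-3p: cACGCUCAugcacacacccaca
miR-629*: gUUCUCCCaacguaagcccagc

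Promoter sequence from 250 bases before to 50 bases after the transcription start was available from RefSeq for 38 of the 48 genes. The core of the interferon-stimulated response element, searched as GAAANNGAAA on both strands with overlapping copies allowed, occurred in a promoter of 26 of the 38 genes (68.4%). The same letters occurred in 4.38% of the 27305 genes with a promoter and in 3.57% of all 35116 promoters. Many of the genes were taken because interferon induces them, so a high share follows from the choice. HERC6, IFI35, IRF1, DDX58 and IFNB1 were among the genes without a match. Windows are printed 5′ to 3′ on the strand of the gene, with the matched letters in capitals, for ISG15 at chr1:1013374-1013403 (+), IFIT1 at chr10:89392497-89392526 (+), MX1 at chr21:41420559-41420588 (+), EIF2AK2 at chr2:37156967-37156996 (−), CXCL10 at chr4:76023699-76023728 (−), BST2 at chr19:17405741-17405770 (−) and IFITM3 at chr11:320876-320905 (−). In IFIT1 the match lies on the opposite strand, and in ISG15 and BST2 a further copy overlaps the one printed. A match describes the letters of the window and does not show that a factor was bound.
ISG15: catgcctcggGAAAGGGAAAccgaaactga
IFIT1: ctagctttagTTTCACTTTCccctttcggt
MX1: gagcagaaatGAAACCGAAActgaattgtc
EIF2AK2: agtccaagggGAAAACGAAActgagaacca
CXCL10: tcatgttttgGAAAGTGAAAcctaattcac
BST2: tcctttctggGAAACTGAAActgaaaacct
IFITM3: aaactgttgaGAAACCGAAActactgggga

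Over all probes, 69.6% to 73.7% were well above background in the antagomir channel of an array and 69.0% to 76.2% in the overexpressing channel, and no spot was saturated. The epithelial markers KRT8, KRT18, KRT19, TACSTD1 (EPCAM) and CDH1 were well above background in all 30 channel readings. Of the markers of other cell types, CD3E, CD14, ITGAM and COL1A1 were also above background in every reading, VWF in 24, and PTPRC, COL1A2, PDGFRB, PECAM1 and CDH5 in none. The array of miR-565 replicate 1 stood apart, with an SD of the log2 ratio over all genes of 0.94 against 0.29 to 0.53 on the other 14 arrays, so results are given with and without it. The arrays lay on 4 slides. Slide 1 held miR-181d and miR-565 replicate 1, slide 2 the other miR-565 arrays and miR-574-3p replicates 1 and 2, slide 3 miR-574-3p replicate 3 and miR-629*, and slide 4 held only miR-766, for which slide and miRNA cannot be told apart.

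IFNB1, the interferon beta gene, and CXCL10 and CCL5, chemokines that interferon and double-stranded RNA induce strongly, were not well above background in either channel of any of the 15 arrays. The same was true of OAS2, RSAD2 (viperin) and TRIM22, so that 6 of 48 genes (12.5%) lacked a measurable level in these cells, against 20.8% of all gene names. The processed signal of IFNB1, in the arbitrary units of the scanner, had a lowest, median and highest value of 1.09, 1.72 and 5.32 in the antagomir channel and of 1.24, 1.44 and 5.60 in the overexpressing channel. That of CXCL10 was 1.03, 1.57 and 2.03 in the antagomir channel and 0.977, 1.28 and 2.05 in the overexpressing channel. CCL5 reached 4.54 at most and RSAD2 6.42 at most. For comparison, the lowest signal called well above background on an array was 5.09 to 10.1 in the antagomir channel and 4.61 to 10.2 in the overexpressing channel. For these 6 genes the arrays give only an upper bound, and a difference between the channels was not read from them.

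Conversely, 38 of the 48 genes (79.2%) were well above background in both channels of every array, against 63.2% of all gene names. The remaining 4 were SAMD9L and IFI44, each above background in all but 1 of the 30 readings, and the dim genes MX2, above background on 11 arrays, and IFI44L, on 8. The filter on dim probes therefore left 42 of the 48 genes for testing. In bulk RNA such as this, a lower share of responding cells and a lower amount of RNA per cell cannot be told apart.

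**Figure D1:**
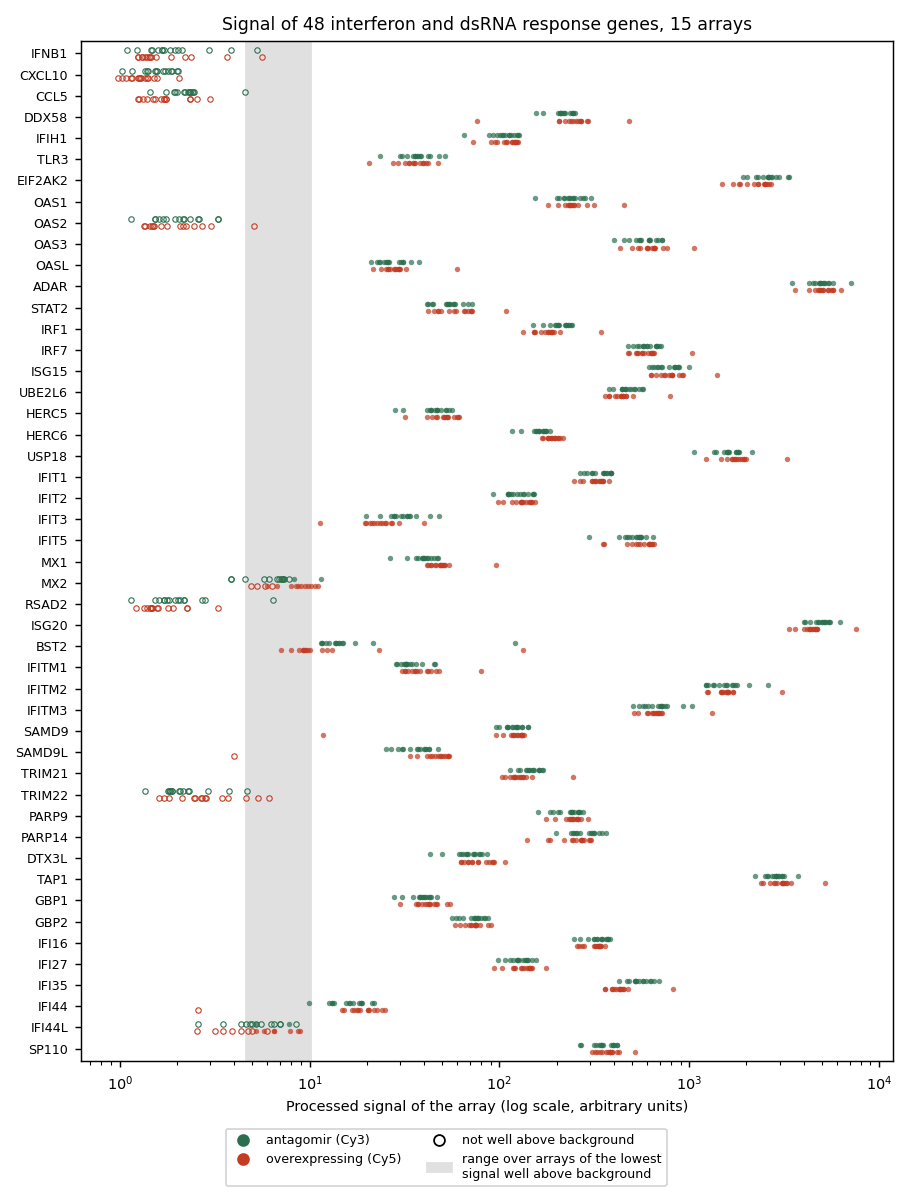
Processed signal (log scale, arbitrary scanner units) of the brightest probe of each of the 48 genes on all 15 arrays, with antagomir and overexpressing channels in different colors and the range of the lowest signal called well above background shaded. The 6 genes without a reading above background lie between 0.977 and 6.42, and the ranges of both channels overlap for each gene.

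Among the sensors, DDX58 had a lowest, median and highest antagomir signal of 156, 215 and 249, and an overexpressing signal of 76.4, 254 and 480. IFIH1 lay at 65.2, 107 and 127 in the antagomir channel and at 72.4, 116 and 125 in the overexpressing channel. TLR3, the endosomal sensor, lay at 23.6, 36.9 and 52.0 and at 20.5, 35.3 and 47.3. All 3 sensors were thus detected whichever oligonucleotide the cells received, and their ranges overlapped between the channels. Such overlap, here and below, does not compare the paired channels of an array, which the ratio does. The ratio was above 0 on 14 of 15 arrays for DDX58, on 10 for IFIH1 and on 6 for TLR3.

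Levels of the induced genes were of the same order in both channels. ISG15, the ubiquitin-like modifier, had antagomir signals of 615 to 992 and overexpressing signals of 629 to 1404. IFIT1, which binds RNA lacking the cap methylation of host mRNA, had 265 to 386 and 248 to 379. OAS1, which makes oligoadenylate second messengers, had 154 to 304 and 181 to 455. For these 3 genes too, the channels overlapped.

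The question of whether the miRNA-overexpressing cells differed from the antagomir-transfected cells was addressed with the log2 ratio of the arrays, tested with limma over all probes that passed the filter and adjusted by the Benjamini-Hochberg method. Averaged over all 15 arrays, the log2 ratios of the 42 genes ranged from −0.42 to 0.33, and no gene reached an absolute value of 0.5. For individual miRNAs, 8 of 42 genes reached 0.5 in size and none reached 1, that is, a 2-fold change. SAMD9, SAMD9L, IFI44, IFIT3, IFITM1 and MX1 did so for miR-565, whose replicate 1 stood apart. IFIT3 and BST2 did so for miR-574-3p, and DDX58 for miR-181d. The share of all genes that reached 0.5 was not counted. By the thresholds that the methods set for suppressed mRNA (a ratio under 0.5, p of at most 0.001, here that of limma, and a signal of at least 20 in the knocked-down sample), none of the 42 genes was suppressed by any miRNA, against 0.522% of all genes for at least 1 miRNA. With the same thresholds turned round, for a ratio over 2, none was induced, against 0.213% of all genes.

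At an adjusted p under 0.05, IFI35 was called for miR-181d, 1 of the 42 genes, against 6.36% of all genes. It was lower in the overexpressing than in the antagomir channel, with a log2 ratio of −0.44 ± 0.11 (± SE, n = 3, limma adjusted p = 0.0395). That call was lost when any 1 of 11 arrays was left out, among them each miR-181d array, and 13 genes were called without miR-565 replicate 1. With the slide as a random block 3 genes were called for miR-181d, IFI35, ISG20 and SAMD9L, against 5.8% of all genes. That block used a correlation within slide of 0.73, which was −0.20 without miR-565 replicate 1. IFI35 encodes a leucine zipper protein induced by interferon. For miR-629* the gene called was HERC6, a HECT-type ubiquitin ligase homologous to the ISG15 ligase HERC5, again 1 of 42, against 10.7% of all genes. Its log2 ratio of overexpressing over antagomir channel was 0.31 ± 0.08 (n = 3, limma adjusted p = 0.0229), a call lost without replicate 2 or replicate 3 of miR-629*. This call was also lost with the slide as a random block (limma adjusted p = 0.472, with 0.0304% of all genes called). limma called none of the 42 genes for miR-574-3p (background 5.47%) or miR-766 (background 2.3%). At an unadjusted p under 0.05 there were 10 genes for miR-574-3p and 5 for miR-766, which is 23.8% and 11.9% of 42, against 19.8% and 16.9% of all genes.

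For miR-565, 6 of the 42 genes were called, which is 14.3%, the same share as in all genes (14.3%). IFITM1, an entry-blocking membrane protein, was higher by 0.63 ± 0.17 (limma adjusted p = 0.0327), MX1, a dynamin-like antiviral GTPase, by 0.53 ± 0.16 (limma adjusted p = 0.0480), USP18, the protease that removes ISG15, by 0.28 ± 0.08, IFI27 by 0.26 ± 0.08 and TAP1, the peptide transporter of antigen presentation, by 0.24 ± 0.06, whereas IFIT3, a partner of IFIT1, was lower by a log2 ratio of −0.81 ± 0.20 (limma adjusted p = 0.0224). The largest of these ratios came from replicate 1. MX1 had log2 ratios of 1.20, 0.24 and 0.16 on the 3 miR-565 arrays, IFITM1 1.13, 0.56 and 0.18, and IFIT3 −1.56, −0.44 and −0.42. Without replicate 1 none of the 6 was called, with limma adjusted p values from 0.0516 for TAP1 to 0.263 for MX1. None of the 42 was called with the slide as a random block either (background 0.104%). Leaving out replicate 2 of miR-565 gave 13 calls, and leaving out replicate 1 or 2 of miR-574-3p or replicate 2 of miR-629* gave 3. The calls among all probes moved likewise. They were 2744 higher and 1430 lower with all arrays, and 4641 and 3665 without replicate 2 of miR-565. In the other settings named they were 1898 to 1963 higher and 918 to 1011 lower.

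**Figure D2:**
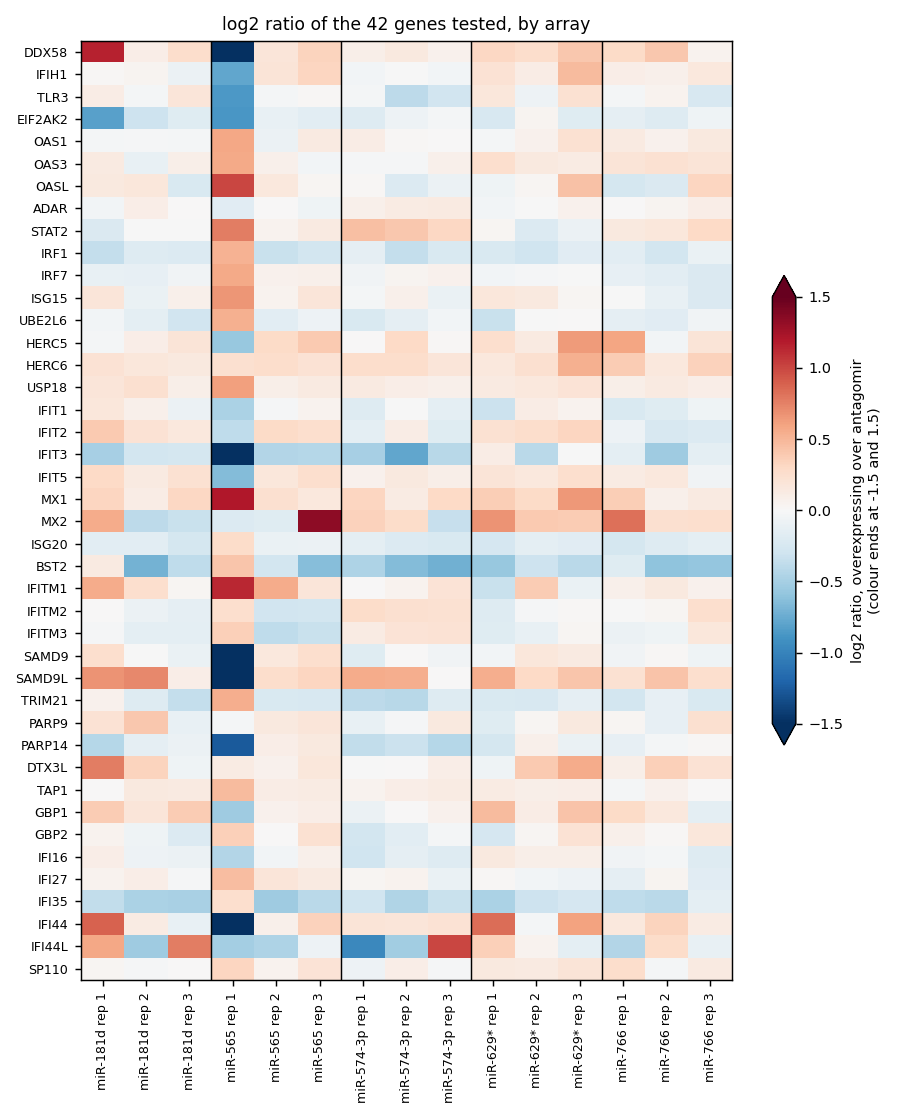
Log2 ratio (overexpressing over antagomir) of the 42 tested genes on each of the 15 arrays, with genes ordered by role and arrays by miRNA and replicate. The color scale ends at −1.5 and 1.5. The column of miR-565 replicate 1 holds 9 values of at least 1 in size, down to −3.38 for SAMD9, and the other 14 columns hold 3, for DDX58 (1.16), MX2 (1.35) and IFI44L (1.0).

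Taken over all 15 arrays, 16 of the 42 genes (38.1%) had a mean log2 ratio different from 0, against 41.7% of all genes. Of these, 9 were higher in the overexpressing channel (21.4%, against 23.1% of all genes) and 7 were lower (16.7%, against 18.6%). The median mean log2 ratio was 0.06 over the 42 genes and 0.01 over all genes, and the median of its absolute value was 0.115 and 0.123. With normexp background correction and loess in place of the deposited normalization, 6 of the 42 genes were higher and 7 lower, and the share of higher calls among all probes moved from 54.6% to 43.1%. With the slide as a random block (correlation within slide 0.73) none of the 42 was called (background 0.235%), and without miR-565 replicate 1 that correlation was −0.20 and 33 were called (background 74%).

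In the ISG15 system, 2 of the 5 genes were higher and none was lower, where 23.1% of all genes were higher and 18.6% lower. HERC6 had a mean log2 ratio of 0.25 ± 0.03 (SE, n = 15, limma adjusted p = 9.79e-05), and its ratio was above 0 on all 15 arrays. By array its log2 ratios were 0.21, 0.18 and 0.15 for miR-181d, 0.24, 0.27 and 0.22 for miR-565, 0.27, 0.26 and 0.18 for miR-574-3p, 0.16, 0.24 and 0.53 for miR-629* and 0.38, 0.15 and 0.34 for miR-766. The 5 miRNAs overlapped, and the lowest overexpressing signal of HERC6, 168, still lay below its highest antagomir signal, 184. USP18 was higher by 0.16 ± 0.03 (limma adjusted p = 0.00247) and was also above 0 on all 15 arrays, with values from 0.08 to 0.62. The direction turned with the probe, since its other bright probe had a mean of −0.11 ± 0.04 (limma adjusted p = 0.0597) and lay below 0 on 13 of 15 arrays, and the mean of both probes gave 0.03 (limma adjusted p = 0.621). ISG15 itself had a mean log2 ratio of 0.07 ± 0.04 (limma adjusted p = 0.226), above 0 on 9 arrays and below on 6.

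Among the antiviral effectors, MX1 was higher and ISG20 and BST2 were lower. MX1 had a mean log2 ratio of 0.33 ± 0.07 (limma adjusted p = 0.00316), and 0.27 ± 0.04 without miR-565 replicate 1. Its ratio lay above 0 on all 15 arrays, from 0.07 to 1.20, with antagomir signals of 26.5 to 47.7 and overexpressing signals of 41.5 to 95.6. BST2 (tetherin), which holds budding virions on the cell surface, was lower at −0.40 ± 0.09 (limma adjusted p = 0.00374), though it was dim, with signals of 7.08 to 23.2 on all arrays but miR-181d replicate 1. Together HERC6, MX1 and USP18 made 3 of 42 genes (7.14%) above 0 on every array, against 6.1% of all genes, and none was below 0 on every array, against 2.41%.

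The genes with the opposite sign were found in several role groups. IFI35 had a mean log2 ratio of −0.34 ± 0.05 (limma adjusted p = 0.000254). Its ratios were −0.36, −0.47 and −0.49 for miR-181d, 0.25, −0.54 and −0.41 for miR-565, −0.29, −0.45 and −0.33 for miR-574-3p, −0.48, −0.31 and −0.25 for miR-629* and −0.39, −0.41 and −0.14 for miR-766. It was thus below 0 on 14 arrays, with miR-565 replicate 1 as the exception. IFIT3 was lower at −0.42 ± 0.09 (limma adjusted p = 0.00222) and at −0.34 ± 0.06 without that array, whereas IFIT1 was not called at −0.08 ± 0.05 (limma adjusted p = 0.167). IRF1, a transcription factor that interferon induces and that activates many of these promoters, was lower at −0.19 ± 0.06 (limma adjusted p = 0.0182), below 0 on 14 arrays.

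Of the enzymes that double-stranded RNA activates, EIF2AK2 was lower at −0.23 ± 0.06 (limma adjusted p = 0.00758). Its other probe had a mean log2 ratio of −0.08 and was not called. The 2 most negative ratios of EIF2AK2 came from replicate 1 of miR-565, at −0.87, and replicate 1 of miR-181d, at −0.81, and the others lay between −0.31 and 0.04. OAS3 was higher at 0.13 ± 0.04 (limma adjusted p = 0.0256), but its other probe gave −0.04 ± 0.05 (limma adjusted p = 0.514) and lay below 0 on 10 of 15 arrays. OAS1 was not called at 0.09 ± 0.04 (limma adjusted p = 0.121). DTX3L, a ubiquitin ligase that works with PARP9, was higher at 0.20 ± 0.06, while PARP9 itself had 0.06 ± 0.05 and was not called. The other DTX3L probe gave 0.06 and was not called either.

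None of the 3 sensors was called in the mean ratio. DDX58 had 0.16 ± 0.13 (limma adjusted p = 0.330), IFIH1 0.05 ± 0.07 (limma adjusted p = 0.594) and TLR3 −0.08 ± 0.07 (limma adjusted p = 0.363). Without miR-565 replicate 1, DDX58 rose to 0.29 ± 0.07 (limma adjusted p = 0.00257) and IFIH1 to 0.12 ± 0.03 (limma adjusted p = 0.00570), whereas TLR3 stayed uncalled at −0.02 ± 0.05 (limma adjusted p = 0.675). The DDX58 ratio was 1.16 on miR-181d replicate 1, where the signals were 215 and 480, between 0.06 and 0.40 on 13 arrays, and −1.63 on miR-565 replicate 1.

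**Figure D3:**
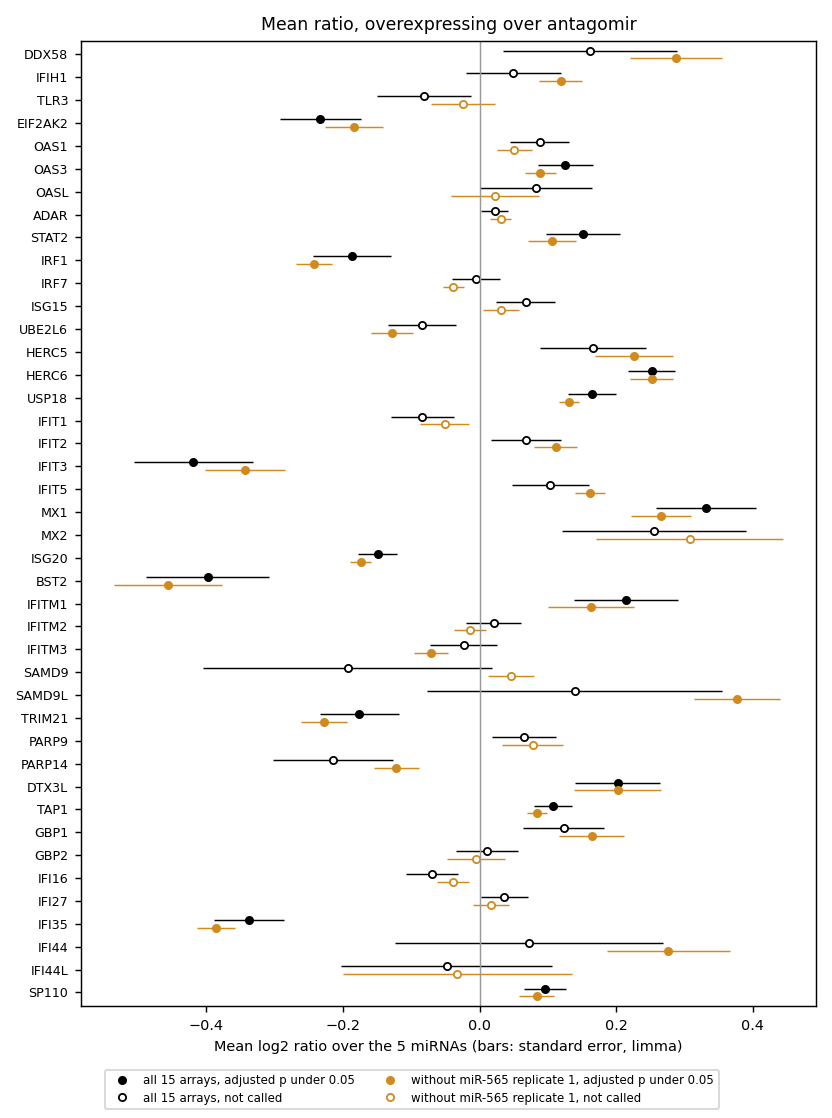
Mean log2 ratio (overexpressing over antagomir) of each of the 42 tested genes over all 15 arrays, with its standard error, and the same without miR-565 replicate 1. With all arrays the values run from −0.42 for IFIT3 to 0.33 for MX1, and leaving the array out narrows most of the error bars.

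With miR-565 replicate 1 left out, the spread between replicates shrank and more genes passed in every comparison of ratios, in the list as in all genes. The mean ratio then gave 27 of 42 genes, 17 higher and 10 lower (64.3%, against 57.9% of all genes). All 16 earlier genes were among them, and the further ones included SAMD9L at 0.38 ± 0.06, IFI44 at 0.28 ± 0.09 and IFIT5 at 0.16 ± 0.02. The other bright IFIT5 probe did not show this rise. Its ratios lay between −0.13 and 0.13 without that array, and above 0 on 7 and below 0 on 8 of all 15 arrays. By miRNA, 13 genes were called for miR-181d (background 28.2%), 7 for miR-565 (16.3%), 14 for miR-574-3p (23.1%), 16 for miR-629* (36%) and 7 for miR-766 (19.5%). IFI35, at −0.31 to −0.47, and IRF1, at −0.18 to −0.30, were then lower for each of the 5 miRNAs. Above 0 on all 14 arrays were DDX58, HERC6, MX1, SAMD9L and USP18, 5 of 42 (11.9%) against 10.8% of all genes, and below 0 were IFI35, IRF1 and ISG20, 3 of 42 (7.14%) against 6.25%.

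Whether the ratios differed among the 5 miRNAs was tested with a moderated F test, in which a shared effect of the dye drops out. limma called none of the 42 genes with all 15 arrays (background 0.539%), and 2 had an unadjusted p under 0.05 (background 7.93%). With the slide as a random block, 18 were called (42.9%, against 30.6% of all genes). The correlation within slide behind that count, 0.73, was −0.20 without miR-565 replicate 1. The arrays of miR-181d lay only on slide 1 and those of miR-766 only on slide 4, so the block cannot fully separate slide from miRNA. Without miR-565 replicate 1 and without the block, 3 were called, against 3.62% of all genes: IFITM2 (limma adjusted p = 0.0108), IFITM3 (limma adjusted p = 0.0195) and IFIT2 (limma adjusted p = 0.0253). These 3 genes, and the others named from the comparison of channels below, lie outside the naming rule and were singled out after their values were seen.

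Each channel was then compared on its own, as the level in 1 miRNA's arrays against the mean of the other 4 miRNAs. In the overexpressing channel limma called none of the 42 genes for any miRNA (background 0.296%), and 8 had an unadjusted p under 0.05 for at least 1 miRNA (19.0%, against 28.1% of all genes). In the antagomir channel 5 genes were called for at least 1 miRNA (11.9%, against 14.2% of all genes), and 24 had an unadjusted p under 0.05 (57.1%, against 53.7%). With the slide as a random block the counts were 12 in the overexpressing channel (28.6%, against 22% of all genes) and 30 in the antagomir channel (71.4%, against 60.8%), and without miR-565 replicate 1 they were 0 (background 0.483%) and 5 (background 11.1%). The largest differences were those of IFITM2 and IFITM3, membrane proteins that block the entry of enveloped viruses.

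IFITM2 was higher by 0.43 ± 0.04 on the log2 scale in cells given the miR-565 antagomir (limma adjusted p = 2.47e-05) and lower by a difference of −0.36 ± 0.04 in cells given the miR-574-3p antagomir (limma adjusted p = 2.18e-05). Its normalized log2 levels were 11.00, 11.00 and 10.87 on the miR-565 arrays, 10.36, 10.29 and 10.32 on the miR-574-3p arrays, 10.64, 10.68 and 10.59 on the miR-181d arrays, 10.70, 10.64 and 10.69 on the miR-629* arrays, and 10.56, 10.49 and 10.38 on the miR-766 arrays. The miR-565 arrays were the highest and the miR-574-3p arrays the lowest of all 15, with no overlap. As deposited, the IFITM2 antagomir signals were 2602, 2067 and 1779 for miR-565 and 1229, 1354 and 1337 for miR-574-3p. The call for miR-766, at −0.17 ± 0.04 (limma adjusted p = 0.0316), was lost without miR-565 replicate 1.

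IFITM3 moved alike, by 0.41 ± 0.05 for the miR-565 antagomir (limma adjusted p = 0.000352) and by −0.34 ± 0.05 for the miR-574-3p antagomir (limma adjusted p = 0.000304). Its normalized log2 levels were 9.73, 9.84 and 9.65 for miR-565, above all other arrays, and 9.18, 9.13 and 9.13 for miR-574-3p, a range that overlapped miR-766 replicate 3 at 9.18. The IFITM2 and IFITM3 transcripts are nearly identical, so how far each probe reads its own gene is uncertain and they are not independent. Their probes lie at chr11:299109-299168 and chr11:309855-309914 (NCBI36). The comparisons also share arrays, since each miRNA is among the others for the next.

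The same differences were also read within slides, without a test and after their values were seen. On slide 2, with 2 arrays of each, the IFITM2 antagomir level of miR-565 exceeded that of miR-574-3p by 0.61 and that of IFITM3 by 0.59. On slide 3, miR-574-3p replicate 3 lay below the mean of the 3 miR-629* arrays by a log2 difference of −0.36 for IFITM2 and −0.34 for IFITM3. On slide 1, miR-181d lay below miR-565 replicate 1 by −0.36 and −0.32. The values of slide 3 thus rest on 1 miR-574-3p array, and those of slide 1 on the array whose ratios stood apart.

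In cells given the miR-574-3p antagomir, PARP14, an ADP-ribosyltransferase, was higher by 0.31 ± 0.05 (limma adjusted p = 0.000665) and IFIT2 by 0.20 ± 0.05 (limma adjusted p = 0.0169). PARP14 had normalized log2 levels of 8.40, 8.33 and 8.43 on these arrays, above the highest level elsewhere, 8.22 on miR-629* replicate 1. Within slide 2 the miR-565 arrays lay below the miR-574-3p arrays by −0.36 for PARP14 and −0.20 for IFIT2. IFIT1 was lower by −0.22 ± 0.05 in cells given the miR-181d antagomir (limma adjusted p = 0.0332), while within slide 1 that difference was −0.08.

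**Figure D4:**
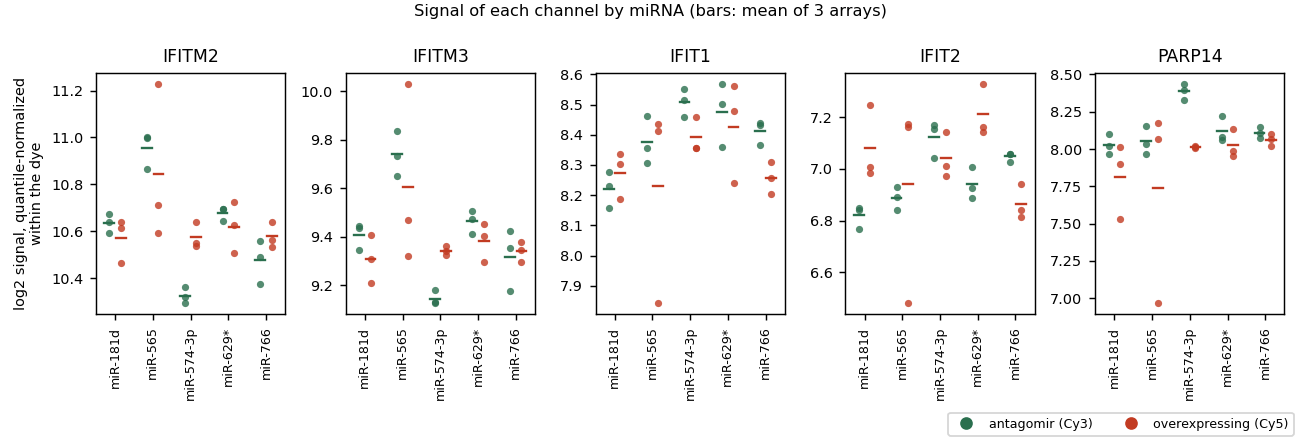
Quantile-normalized log2 signal by miRNA in the antagomir and overexpressing channels, for the 5 genes called in the antagomir channel, with 1 point per array and a bar at the mean of the 3 arrays. For IFITM2 the miR-565 antagomir arrays lie between 10.87 and 11.00 and the miR-574-3p arrays between 10.29 and 10.36, whereas the overexpressing arrays of the 5 miRNAs overlap.

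The array of miR-565 replicate 1 carried most of the large ratios. On it 9 of the 42 genes (21.4%) had an absolute log2 ratio of at least 1, against 21.2% of all genes. SAMD9 and its neighbor SAMD9L, growth-restraining antiviral factors, had ratios of −3.38 and −3.27, IFI44 −2.85, DDX58 −1.63, IFIT3 −1.56 and PARP14 −1.26, while MX1 had 1.20, IFITM1 1.13 and OASL 1.0. The overexpressing channel carried these values. The SAMD9 overexpressing signal was 11.7 on this array and 95.8 to 135 on the other 14, whereas its antagomir signal was 122 on this array and 95.6 to 141 elsewhere.

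Compared with the mean of the other 14 arrays, 7 of the 42 genes differed by more than 1 on the log2 scale in the overexpressing channel of that array, 6 lower and 1 higher, and none did so in the antagomir channel. The share of all genes was not counted for single channels, but 21.2% of all genes had an absolute log2 ratio of at least 1 on that array. Among the 7, the differences included −3.40 for SAMD9L, −3.34 for SAMD9, −2.93 for IFI44, −1.90 for DDX58 and 1.02 for OASL, where the SD over the other 14 arrays was 0.13 to 0.28 for these genes. Replicates 2 and 3 of miR-565 did not share them, with SAMD9 ratios of 0.15 and 0.26. The description rests on 1 array, and no test was made of it.

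**Figure D5:**
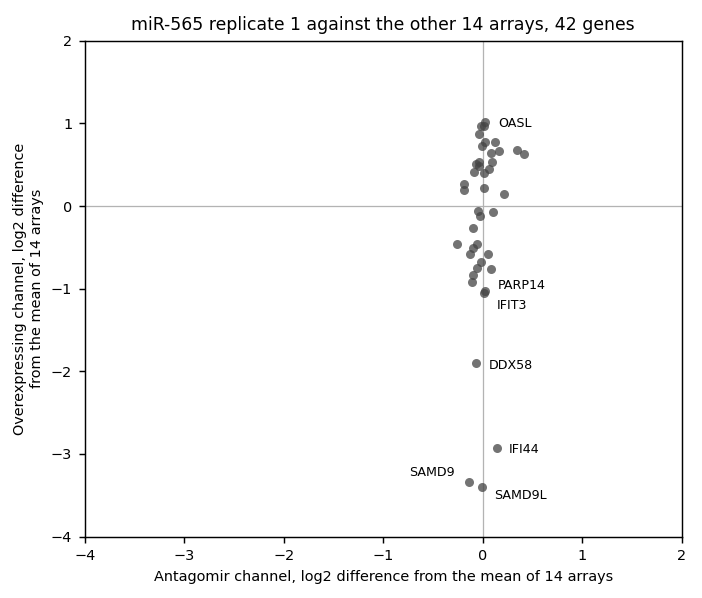
Difference of miR-565 replicate 1 from the mean of the other 14 arrays (log2 scale) for the 42 tested genes, in each of the channels. Overexpressing values reach −3.40 for SAMD9L, while all antagomir values lie within 1 of 0.

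Several probes of a gene did not always give the same ratio. Of the 15 genes with at least 2 tested probes, 8 had mean ratios of opposite sign, and the spread between the probes of a gene had a median of 0.17 on the log2 scale. USP18 and OAS3, described above, were among them, while HERC6 gave 0.25 with its brightest probe and 0.18 ± 0.09 with the other (limma adjusted p = 0.120). The brightest PARP14 probe gave −0.21 (limma adjusted p = 0.0659) and was not called, whereas another probe was lower at −0.33 (limma adjusted p = 0.00927) and a dim probe was higher at 0.85 (limma adjusted p = 0.00108). ADAR and GBP1 were likewise called only by a probe other than the brightest, at 0.17 and 0.34.

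Of a wider list of 51 names in the same pathway (receptors, kinases, adaptors, regulators and 16 further interferon-induced genes), 47 were on the array and 40 passed the filter, and 6 were never well above background: AIM2, TLR7, TLR8, TLR9, XAF1 and ZBP1. In the mean ratio 10 of 40 were called (25%, against 41.7% of all genes), 23 without miR-565 replicate 1 (57.5%, against 57.9%) and 0 with the slide as a random block (background 0.235%). Among the 10, IFNGR1, IL28RA, ISGF3G (IRF9), PML and TRAF6 were higher, by 0.10 to 0.28, and IFNAR1, IRF3, PSME2 and VISA (MAVS) were lower, by −0.12 to −0.50. VISA, the adaptor of DDX58 and IFIH1, had −0.50 ± 0.09 (limma adjusted p = 0.00121) and IRF3, the factor that switches on IFNB1, −0.28 ± 0.04 (limma adjusted p = 0.000121). By miRNA, 1 of 40 was called for miR-181d (IRF3), which is 2.5% against 6.36% of all genes, and 3 for miR-565 (IRF2, IRF2BP2, ISGF3G), 7.5% against 14.3%. For miR-574-3p there were 4 (MYD88, PIAS1, IRF2, PSME2), 10% against 5.47%, and for miR-629* there were 2 (IRF3, VISA), 5% against 10.7%. limma called none for miR-766 (background 2.3%), where 4 had an unadjusted p under 0.05 (10%, against 16.9%). In the overexpressing channel limma called none of the 40 (background 0.296%), and 12 had an unadjusted p under 0.05 for at least 1 miRNA (30%, against 28.1% of all genes). In the antagomir channel 12 of 40 were called for at least 1 miRNA (30%, against 14.2% of all genes).

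Of these genes, IRF2, MYD88 and PSME2 differed in ratio among the miRNAs by the F test, 3 of 40 (7.5%) against 0.539% of all genes. Set against the average of the remaining miRNAs, the miR-574-3p ratio differed for 4 of 40 (10%), against 1.23% of all genes. The wider list was chosen with earlier results of these data known, so its shares, here and above, are descriptive only. MYD88, the adaptor of most Toll-like receptors, had log2 ratios of 0.66, 0.68 and 0.79 in miR-574-3p arrays and of −0.27 to 0.35 elsewhere. Its antagomir signals were 587, 578 and 566 in the miR-574-3p arrays and 734 to 1437 elsewhere, while its overexpressing signals, 926, 928 and 976, lay within the range of the other arrays. MYD88 was thus lower in cells given the miR-574-3p antagomir, by a log2 difference of −0.93 ± 0.06 from the other antagomirs (limma adjusted p = 1.33e-08). PSME2, an activator subunit of the proteasome, was higher there by 0.57 ± 0.04 (limma adjusted p = 2.46e-07) and IRF2, a repressor of IRF1 targets, by 0.61 ± 0.06 (limma adjusted p = 5.91e-06), and both had ratios of −0.52 or below on all 3 miR-574-3p arrays.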

How the data were processed

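The authors hybridized Cy5-labeled RNA of miRNA-overexpressing A549 cells with Cy3-labeled RNA of antagomir-transfected cells on dual-color Agilent whole genome arrays (annotation NCBI36). Per the file headers, Feature Extraction (9.5.3 in the submitters' processing notes) gave processed signal intensity after background subtraction, detrending and LOWESS dye normalization, and the deposited log10 ratio (Cy5 over Cy3) is that of these signals. The deposited series table repeated this log10 ratio with no difference. The deposited error of the ratio, a score that the software's error model assigns, was used as a weight in an alternative fit.

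Control spots (1639 per array) and outlier-flagged spots (96 to 208 per array) were left out and spots of a probe were averaged. From the deposited intensity, log2 ratios were fitted with limma 3.58.1 (R 4.3.3; lmFit and eBayes with an intensity trend), with 1 coefficient per miRNA, over the 31357 probes that at least 3 arrays called well above background in 1 or both channels. Contrasts were the ratio of each miRNA, the mean of the 5, each miRNA against the other 4, and the F test. Channels were compared as log2 signals quantile-normalized within a dye. Adjusted p values (Benjamini-Hochberg, over all probes) under 0.05 were called. A gene was read from its brightest probe, and shares of all genes were counted likewise. The number of arrays limits precision.

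The genes and lists were chosen with earlier results of these data known. Named were the 12 called genes with the largest ratios and 12 fixed ones (IFNB1, CXCL10, CCL5, ISG15, IFIT1, MX1, OAS1, RSAD2, DDX58, IFIH1, TLR3, EIF2AK2), and genes of the wider list where called, except for items not reported here. The fits were tested on simulated data. Alternatives changed the background correction, centring, weights, trend, filter, probe rule and blocks, and left out each array.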

Additional observations from a re-analysis of the deposited data

Results flagged for a closer look

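In the wider pathway list, chosen with earlier results of these data known, 4 genes differed between the miR-574-3p ratio and the mean ratio of the other 4 miRNAs by limma's test of the difference itself. This is 10% of 40, against 1.23% of all genes, and the share is descriptive only. The log2 difference was 0.76 for MYD88 (limma adjusted p = 0.00165), 0.30 for PIAS1 (limma adjusted p = 0.0220), −0.76 for IRF2 (limma adjusted p = 0.00174) and −0.58 for PSME2 (limma adjusted p = 9.13e-05). The 3 miR-574-3p arrays lay on slides 2 and 3, each shared with another miRNA. No group was large enough to test for a deviating sample.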

How the results depend on the processing

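Counts of called genes (of 42) are given here in the order miR-181d, miR-565 and miR-574-3p, then miR-629* and miR-766, mean ratio, F test, overexpressing channel, antagomir channel and, of 40, the wider list. With all arrays they were 1, 6, 0, 1, 0, 16, 0, 0, 5 and 10. With the slide as a random block, miR-181d gave 3 and miR-565, miR-629*, the mean ratio and the wider list 0 each, whereas the F test gave 18, the overexpressing channel 12 and the antagomir channel 30. With that block and miR-565 replicate 1 left out, both chosen after seeing the data, as was the block for the channels, the counts were 22, 16, 17, 22, 19, 33, 12, 26, 29 and 34. Of all genes, 46.3%, 30.9%, 32.2%, 57.4% and 39.6% were called there for the 5 miRNAs in the same order. In the mean ratio, from which the wider list is also counted, it was 74%. The alternatives that follow are given without shares of all genes, so their counts do not describe the pathway alone. Normexp with loess gave 2 for miR-181d, 4 for miR-574-3p, 4 for miR-629* and 16 for the wider list. Median centring gave 3 for miR-574-3p, 3 for miR-629* and 1 for miR-766. Fitting only the 3 arrays of a miRNA gave 2, 0, 14, 8 and 1. Among all probes, 1511, 0, 3874, 4120 and 746 were then higher and 1420, 0, 4092, 3020 and 931 lower. Without an intensity trend miR-181d gave 0, and without the filter on dim probes 3. By the thresholds of the methods and the same turned round, miR-181d, miR-565 and miR-629* gave 0.

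Leaving out 1 array at a time gave 0 to 13, 3 to 13, 0 to 14, 0 to 16, 0 to 7, 12 to 27, 0 to 3, 0 to 0, 4 to 6 and 9 to 23. Most upper ends came from leaving out miR-565 replicate 1, while 13 for miR-565 came from leaving out its replicate 2. The miR-181d call was lost without each of 11 arrays. The 6 genes below background stayed 6 to 6. Arrays of the same replicate number did not consistently deviate together (correlations −0.39 to 0.51, median 0.06, over 0.1 in 13 of 30 pairs). Some pairs did, with 0.51 for replicate 1 of miR-574-3p and miR-629*, whereas replicate 1 of miR-181d and miR-629* had −0.39. A replicate block gave 2, 8, 0, 1, 0, 17, 0, 0, 5 and 10. Among the called single-gene values no alternative reversed a direction. Counted together with named values that were not called, 857 stayed on the same side of the threshold, 138 became weaker and 7 stronger. The 138 were all called values and the 7 were not, so the called values alone were less stable than these totals. The cause of these changes was not tested. No alternative read a gene from its other probe alone, where the mean ratios of USP18 and OAS3 had the opposite sign. For dim genes, signal over background limits what the ratios show.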

Other observations

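BST2 read 121 (antagomir) and 133 (overexpressing) on miR-181d replicate 1, against 11.5 to 21.6 and 7.08 to 23.2 on the other 14 arrays, so that both channels of 1 array were high together while the log2 ratio was 0.13. On the same array DDX58 read 480 in the overexpressing channel, against 76.4 to 292 elsewhere.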
